A study of Mus musculus with 24 samples.

Results

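The 10 genes described here encode the kinases Sgk1, Sgk3, Akt1 and Akt2, the transcription factors Foxo1, Foxo3 and Foxo4, the insulin receptor Insr and its substrates Irs1 and Irs2. They were taken by name from a table of 20351 genes, and all 10 were in it and passed the filter on low counts. Messenger RNA was sequenced in 24 libraries of HL-1 cells, a line derived from mouse atrial cardiomyocytes. All cells had received adenovirus at 30 MOI (infectious units per cell) and, per the growth protocol, were moved to serum-free medium. The 4 groups of 6 libraries were MuRF1 KD cells (Adsh_MuRF1) stretched at 15% and 1 Hz for 60 min, MuRF1 KD cells without stretch, control cells (Adsh_scrambled) with the same stretch, and control cells without stretch, with stretch starting 48 h after the virus. MuRF1, the product of Trim63, is a ubiquitin ligase of striated muscle. The knockdown was transient and rests on 1 hairpin virus in 1 cell line. The labels name the stretch uniaxial in one field and biaxial in another.

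Insulin and related growth factors bind Insr, which phosphorylates Irs1 and Irs2, the docking proteins that recruit phosphoinositide 3-kinase (PI3K). The lipid made by PI3K brings Akt kinases to the membrane, and Akt, like the related Sgk kinases, phosphorylates FoxO factors and keeps them out of the nucleus. Nuclear FoxO factors switch on genes of protein breakdown, autophagy and cell cycle arrest, among them Fbxo32 (atrogin-1) and Trim63 itself, the pair of ligases best known from muscle atrophy. Sgk1 differs from the other kinases in being controlled largely through its transcript, which rises quickly after serum, glucocorticoids or cell stress in many cell types. Phosphorylation and nuclear location were not measured, so all values below are transcript levels.

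Libraries held 23564268 to 54755203 estimated counts. Levels are given as CPM, each library's counts scaled to a common total with edgeR's TMM factors, and changes as log2 fold changes with their standard errors (SE). A gene is said to have risen or fallen where edgeR's quasi-likelihood test gave an adjusted p under 0.05 over all 14411 tested genes. In stretched cells Trim63 was 91.2% lower with knockdown, at 68.5 ± 7.91 CPM, against 781 ± 81.7 CPM in control (SD, n = 6 each). Without stretch it was 91.3% lower, at 55.7 ± 1.17 CPM with knockdown, against 640 ± 68.1 CPM in control (SD, n = 6 each). Permuting the libraries gave p = 0.00216 in each setting (exact, two-sided), which is the lowest value 924 divisions can give. Of 12 atrial cardiomyocyte markers, 11 were tested, and 9 fell and 1 rose with the knockdown both in stretched cells and without stretch, where 52% and 57.8% of all tested genes passed. With stretch 4 of the 11 rose and 0 fell in knockdown cells, the comparison in which Sgk1 rose, and 1 rose and 0 fell in control cells, against 8.93% and 5.95% of all tested genes. Their summed level was 1306 to 1350 CPM in stretched knockdown cells, 1180 to 1282 CPM in non-stretched knockdown cells, 2218 to 2672 CPM in stretched control cells and 2329 to 2612 CPM in non-stretched control cells. Nppa and Sln, both typical of atrial muscle, were near 0, with group means of 0.396 to 0.558 CPM and 0.0110 to 0.104 CPM. Of 6 fibroblast markers, 4 were tested and 3 fell with the knockdown in both settings, with summed levels of 65.6 to 69.5 and 55.7 to 68.8 CPM in knockdown cells, stretched and non-stretched, against 129 to 152 and 151 to 159 CPM in control cells. Most of that sum was Col1a1, with means of 59.4 and 54.9 CPM against 129 and 145 CPM. Pdgfra averaged 7.28 and 6.98 CPM against 6.90 and 7.52 CPM. With stretch 1 of the 4 fell in control cells and 0 changed in knockdown cells. Of 5 smooth muscle markers, 3 fell with the knockdown in both settings and 1 rose in stretched cells, with summed levels of 1736 to 1826 and 1611 to 1754 CPM in knockdown cells, stretched and non-stretched, against 2344 to 2732 and 2352 to 2575 CPM in control cells. Most of that sum was Acta2, with means of 1621 and 1523 CPM against 2426 and 2280 CPM. With stretch 1 of the 5 rose and 0 fell in each kind of cell. Of 3 tested macrophage markers, with summed levels of 1.56 to 4.03 CPM over all libraries, the knockdown raised 1 in stretched cells and 2 without stretch, and stretch raised 1 in knockdown and 2 in control cells. Of 3 tested endothelial markers, at 7.11 to 10.2 CPM in sum, 1 fell with the knockdown in each setting and 0 changed with stretch. Of 3 tested skeletal muscle markers, at 4.11 to 8.64 CPM in sum, the knockdown lowered 1 in stretched cells and 2 without stretch. Stretch raised 1 of these 3 in knockdown cells and 0 in control cells. The part of these shifts in the results below was not tested. Stretched control replicate 5 stood apart from the other 23 libraries, with the fewest counts. It had the lowest shares of mitochondrially encoded transcripts (1.45%) and of ribosomal protein transcripts (3.24%). Only some of the results that rest on this library are also given without it. For the gene lists below, calls lost without it were followed, but calls gained without it were not. The list counts for stretch in control cells, including those of 0, were therefore not checked for such gains. Nothing in the labels says that replicates came from separate cultures, so the p-values measure only the spread between these libraries, which may be technical. Each library code also holds a number that is constant within a group and an ending that differs between its replicates, as plates and wells might be named. The labels give neither a meaning, and if the number marks a plate or batch, it and the group cannot be told apart.

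Knockdown moved most of the 10 genes, and stretch moved few. Without stretch, 4 genes rose with the knockdown (Sgk3, Foxo1, Irs1 and Irs2) and 5 fell (Sgk1, Akt1, Akt2, Foxo4 and Insr). Over all tested genes 57.8% passed the test there, 28% as rises and 29.7% as falls, so a single call there says little. In stretched cells the same 4 genes rose, and Akt1, Akt2 and Insr fell, against a background of 52% (25.1% rises and 26.9% falls). Stretch of knockdown cells raised Sgk1 and Irs2 and lowered Foxo1, 3 of 10 genes against a background of 8.93% (5.32% rises and 3.61% falls). Stretch of control cells lowered Foxo1 alone, 1 of 10 genes against a background of 5.95% (2.55% rises and 3.39% falls). Without stretched control replicate 5 that background was 14%, with Foxo1 still the 1 gene called. The 6 libraries of each group did not overlap for 7 of the 10 genes with the knockdown without stretch and for 6 with the knockdown in stretched cells, where this held for 37.8% (16.3% higher, 21.5% lower) and 31.9% (14.7% higher, 17.3% lower) of all tested genes. With stretch they did not overlap for 2 genes in knockdown cells and for 0 in control cells, against 5.43% (3.5% higher, 1.93% lower) and 3.19% (1.16% higher, 2.03% lower) of all tested genes. The median log2 fold change of the 10 genes was -0.08 with the knockdown without stretch, beside 0.01 over all genes, and their median absolute change was 0.31, beside 0.20. With the knockdown in stretched cells their median was -0.0055, beside 0.0025, and their median absolute change 0.25, beside 0.17.

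**Figure D1:**
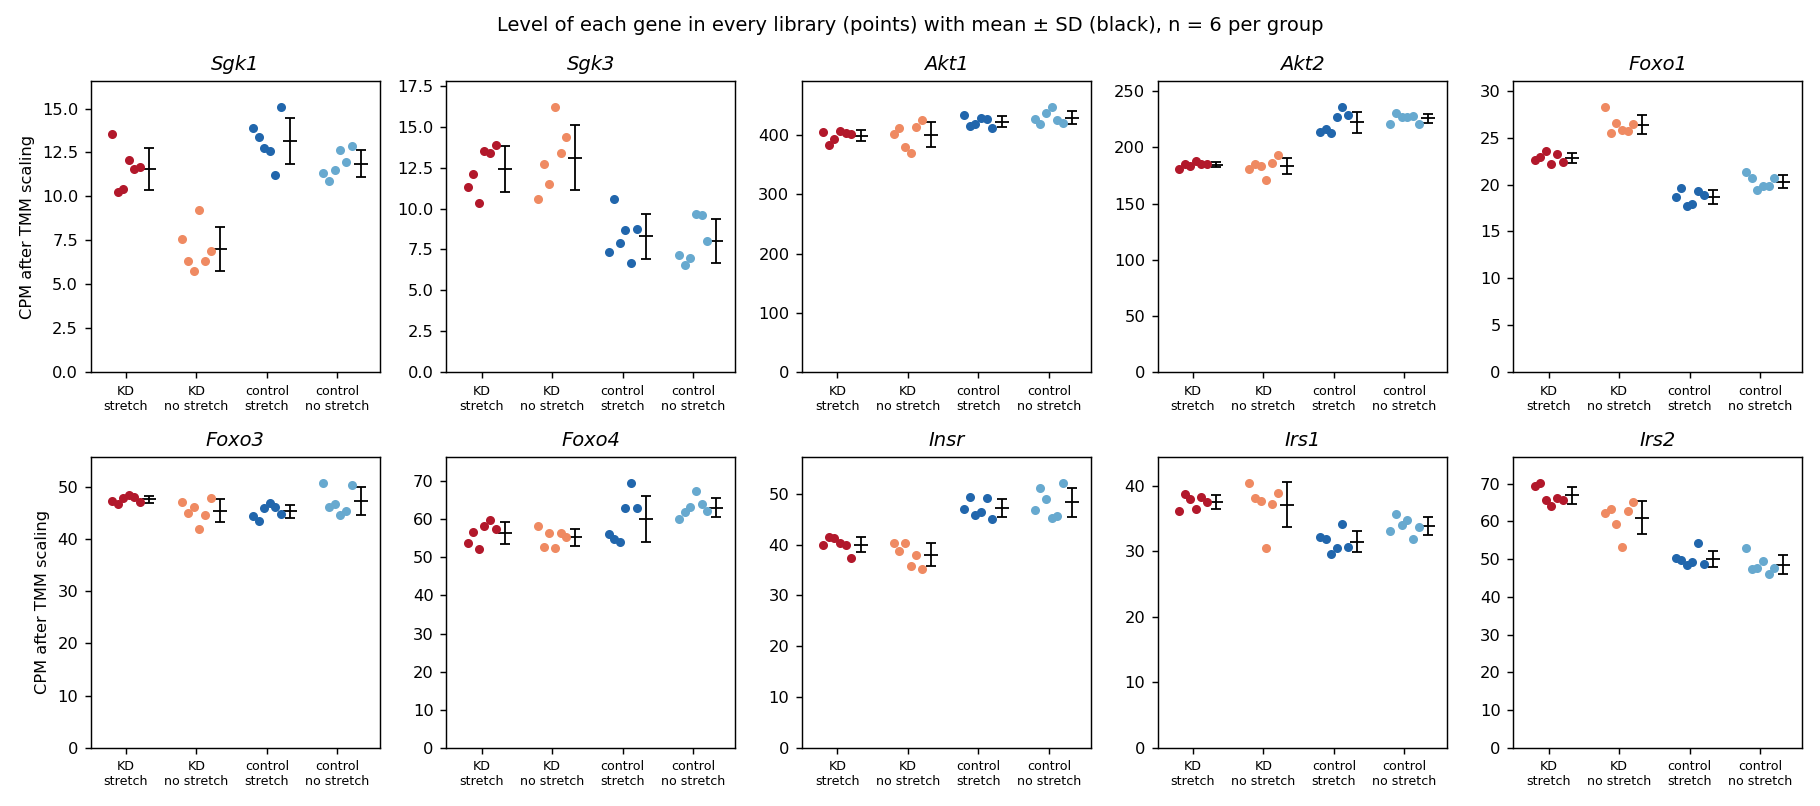
Level of each of the 10 genes in every library (points, CPM after TMM scaling) with the group mean ± SD in black, 6 libraries per group, from stretched knockdown cells on the left of each panel to non-stretched control cells on the right. Sgk1 is lowest in all 6 non-stretched knockdown libraries, at 5.78 to 9.20 CPM, below every library of the other 3 groups.

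**Figure D2:**
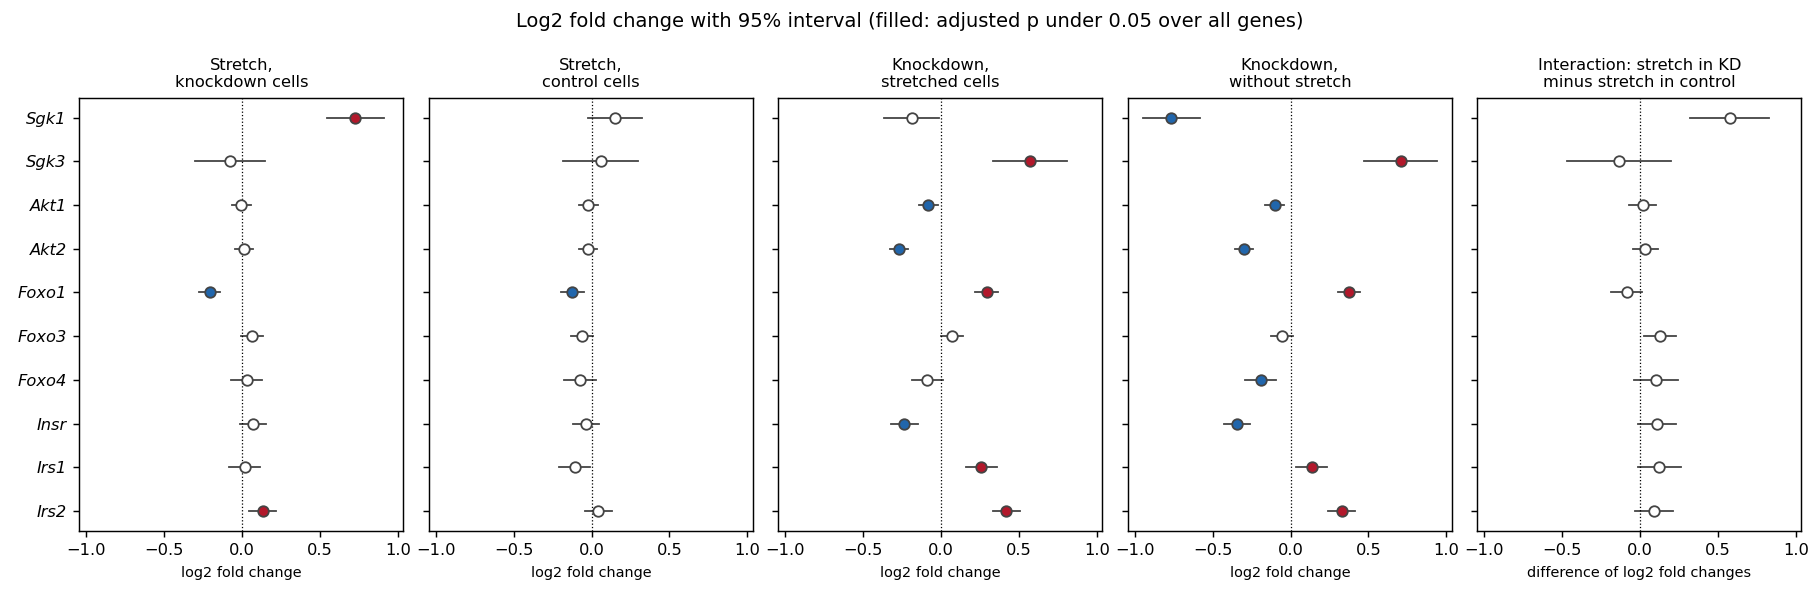
Log2 fold change of each gene with its 95% interval in the 4 comparisons of groups, and the difference between both stretch responses on the right; filled points passed the adjusted p of 0.05 over all genes, red for rises and blue for falls. The stretch panels hold 1 large change, that of Sgk1 in knockdown cells at 0.73, whereas the knockdown panels hold 7 and 9 filled points.

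To compare levels between genes, CPM were divided by the length of the longest protein-coding transcript (CPM per kb). In non-stretched control cells Akt1, the widely expressed Akt kinase, was highest at 159 ± 4.00 CPM per kb, followed by Akt2, the form most tied to insulin action, at 49.7 ± 0.901 CPM per kb (SD, n = 6 each). Foxo4 came next at 19.9 ± 0.797 CPM per kb, above Foxo3 at 6.91 ± 0.379 and Foxo1 at 2.34 ± 0.0834 CPM per kb (SD, n = 6 each). Irs2 stood at 7.68 ± 0.380 CPM per kb and overlapped with Foxo3, and Insr followed at 5.17 ± 0.307 CPM per kb (SD, n = 6 each). Sgk1 (3.83 ± 0.251 CPM per kb) and Irs1 (3.70 ± 0.146 CPM per kb) overlapped, as did Foxo1 and Sgk3 (2.12 ± 0.357 CPM per kb) at the low end (SD, n = 6 each). Akt1, Akt2 and Foxo4 held the top 3 places in all 4 groups, with no overlap between neighbours. Sgk1 was 7th of 10 in non-stretched and stretched control cells, 8th in stretched knockdown cells and 10th in non-stretched knockdown cells, at 2.26 ± 0.399 CPM per kb (SD, n = 6). The order depended on the length used: with the mean length of a gene's coding transcripts Foxo3 came 4th in each group, ahead of Irs2, and Sgk1 came 7th in each group.

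Sgk1, the serum- and glucocorticoid-regulated kinase, spans bases 21882184 to 21999903 of chromosome 10 (GRCm38, plus strand, ENSMUSG00000019970) and has 9 protein-coding transcripts from several starts. Its level ranged from 10.2 to 13.5 CPM (median 11.6) in stretched knockdown cells and from 5.78 to 9.20 CPM (median 6.61) in non-stretched knockdown cells. In control cells it ranged from 11.2 to 15.1 CPM (median 13.1) with stretch and from 10.9 to 12.9 CPM (median 11.7) without. The non-stretched knockdown libraries were therefore the low ones, without overlap with any other group, while the other 3 groups overlapped. Stretch of knockdown cells raised Sgk1 by 0.73 on the log2 scale (SE 0.0892, 95% interval 0.54 to 0.91, adjusted p = 4.26e-06), a level 65.6% higher, and it ranked 39th by p among all tested genes. In control cells the stretch response was 0.15 (SE 0.0854, 95% interval -0.02 to 0.33, adjusted p = 0.316), with 3 of 6 stretched libraries above all non-stretched ones. That response was 0.11 to 0.19 over the 12 fits with a library left out (adjusted p = 0.138 to 0.519). Without stretch the knockdown lowered Sgk1 by 41.2% (log2 fold change -0.77, SE 0.0892, adjusted p = 3.16e-08). With stretch its mean was 11.6 ± 1.20 CPM in knockdown and 13.1 ± 1.31 CPM in control libraries (SD, n = 6 each), and the difference of -0.19 on the log2 scale missed the threshold (SE 0.0854, adjusted p = 0.0659). Leaving out stretched control replicate 5 gave -0.23 (adjusted p = 0.0240), and leaving out stretched knockdown replicate 1 gave -0.23 (adjusted p = 0.0299), each past the threshold, within 0.0240 to 0.235 over all its alternatives. As whole cultures were sequenced, fewer cells with a transcript and less of it per cell cannot be told apart. The rise in knockdown cells and the fall without stretch passed in all 6 alternative settings and with each of the 12 libraries left out.

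The difference between both Sgk1 stretch responses was 0.58 (SE 0.123, 95% interval 0.32 to 0.83). It ranked 17th of 14411 genes by p (unadjusted p = 7.95e-05) and missed the threshold over all genes in edgeR (adjusted p = 0.0619). DESeq2 placed it past the threshold with the same size, 0.58 (adjusted p = 0.00224), and over all alternatives the adjusted p ran from 0.00224 to 0.189. The call also appeared without stretched control replicate 5 (0.54, adjusted p = 0.0357), without non-stretched knockdown replicate 4 (0.65, adjusted p = 0.0210) and without non-stretched knockdown replicate 6 (0.57, adjusted p = 0.0496). Only 3 genes of all tested passed this test in edgeR, 0.0208%, and 0 of the 10 genes described here were among them. That count was unstable, at 0 to 109 with a library left out (109, or 0.753%, without stretched control replicate 5) and 122 with DESeq2. At an unadjusted p under 0.05 there were 2, Sgk1 and Foxo3, and DESeq2 called 1, Sgk1, with 1355 of all genes (9.4%) at that unadjusted p.

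**Figure D3:**
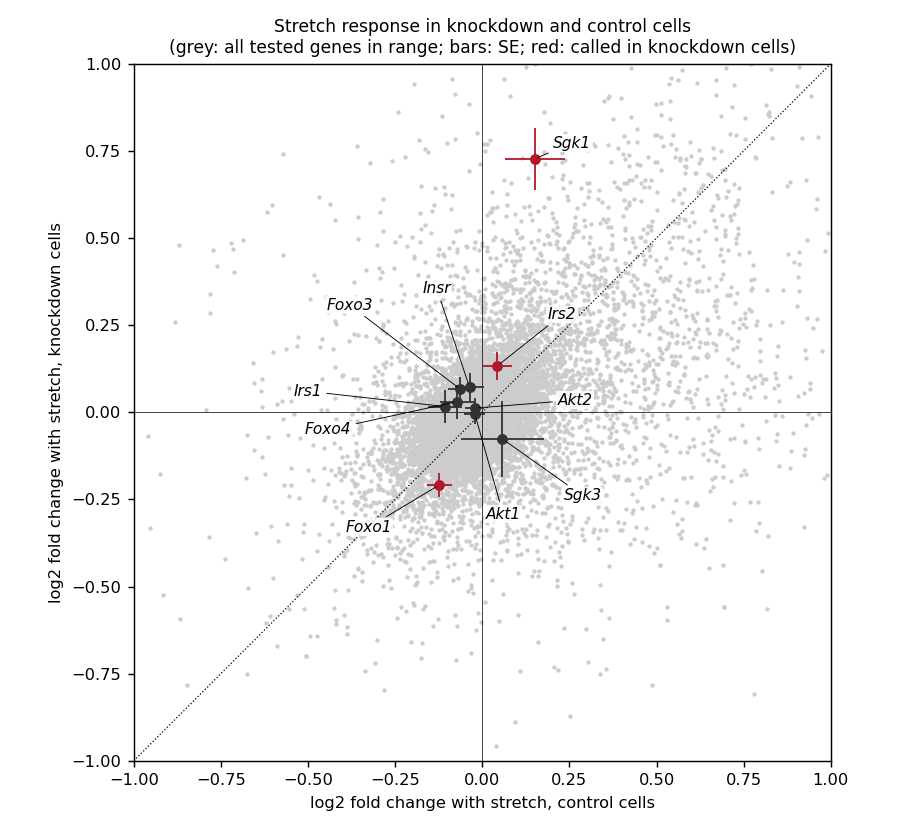
Log2 fold change with stretch in knockdown cells (vertical) against that in control cells (horizontal) for the 10 genes with SE bars, over all tested genes inside the plotted range in grey (14240 of 14411). Sgk1 lies far above the dotted line of equal change, at 0.73 in knockdown and 0.15 in control cells, and the other 9 genes lie between -0.21 and 0.13 on both axes.

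Promoter sequence was available from RefSeq (GRCm38.p6) for 7 of the 10 genes, as 16 windows of 250 bases before a start and 50 after; the 250 bases before the start are used here. Windows of Sgk1, Irs1 and Irs2 are shown because Sgk1 and Irs2 were the genes that rose with stretch and Irs1 and Irs2 rose together with the knockdown. Foxo1 also rose with the knockdown, and its window and the other Sgk1 windows are not printed. Sgk1 transcripts start at several places, and the window at chr10:21993640-21993889 (plus strand, start of Sgk1-202) and the window at chr10:21994416-21994665 (plus strand, start of Sgk1-201) read as follows, 5′ to 3′, with matches to the glucocorticoid receptor, E-box and TATA motifs in capitals and GC boxes left in lower case.
Sgk1, Sgk1-202 start: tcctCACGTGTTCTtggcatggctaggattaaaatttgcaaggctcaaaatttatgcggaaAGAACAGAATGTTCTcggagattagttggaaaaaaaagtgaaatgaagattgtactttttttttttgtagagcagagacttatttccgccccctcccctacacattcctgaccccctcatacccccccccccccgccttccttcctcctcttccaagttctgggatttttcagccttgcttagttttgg
Sgk1, Sgk1-201 start: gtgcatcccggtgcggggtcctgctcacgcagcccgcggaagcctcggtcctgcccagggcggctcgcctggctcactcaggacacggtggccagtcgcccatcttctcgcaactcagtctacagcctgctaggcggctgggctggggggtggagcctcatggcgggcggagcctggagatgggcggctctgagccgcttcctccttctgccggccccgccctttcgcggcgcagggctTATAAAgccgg

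The window before Sgk1-202 holds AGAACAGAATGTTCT at positions -189 to -175 from the start, the palindromic glucocorticoid receptor motif of AGAACA and TGTTCT with any 3 bases between them, which was found in 3 of 32851 promoter windows of the same length (0.00913%). It also holds an E-box CACGTG at -246 to -241, the motif of several basic helix-loop-helix factors, which shares its last 2 bases with a single receptor arm read as TGTTCT. Both strands were searched, and single arms (AGAACA) occur in 16.1% of windows and E-boxes in 6.02%. Before Sgk1-201 the capitals mark a TATA box, TATAAA, at -11 to -6, a motif in 12.4% of windows. The unprinted window before Sgk1-212 and Sgk1-203 also holds a TATA box, at -28 to -23, and a single arm AGAACA at -13 to -8. The AP-1 motif TGANTCA, the cAMP motif TGACGTCA and the CArG box matched none of the 16 windows of these genes, and they match 6.75%, 1.55% and 1.47% of all windows. A match describes the letters only, and the counts do not separate transcripts by start.

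The Irs1 window at chr1:82291440-82291689 (minus strand) and the Irs2 window at chr8:11008930-11009179 (minus strand) are printed on the strand of the gene, with E-boxes (CACGTG) and insulin response cores (CAAAACA, here on the other strand as TGTTTTG) in capitals.
Irs1: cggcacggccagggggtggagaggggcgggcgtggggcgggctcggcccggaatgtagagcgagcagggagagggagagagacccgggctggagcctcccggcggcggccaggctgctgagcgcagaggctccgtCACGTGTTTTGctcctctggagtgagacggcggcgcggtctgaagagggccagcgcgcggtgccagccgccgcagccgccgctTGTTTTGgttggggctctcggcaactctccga
Irs2: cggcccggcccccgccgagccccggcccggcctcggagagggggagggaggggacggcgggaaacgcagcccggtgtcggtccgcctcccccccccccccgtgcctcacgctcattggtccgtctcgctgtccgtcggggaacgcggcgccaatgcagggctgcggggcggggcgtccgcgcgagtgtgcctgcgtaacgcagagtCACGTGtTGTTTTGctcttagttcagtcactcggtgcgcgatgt

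Positions in both windows are counted from the RefSeq starts, 82291439 for Irs1 and 11008929 for Irs2. The GENCODE models behind the gene positions given below begin farther downstream, at 82291416 and 11008458. In the Irs1 window the E-box at -115 to -110 shares 2 bases with an insulin response core at -111 to -105, and a further core lies at -32 to -26. In the Irs2 window the E-box at -44 to -39 is separated by 1 base from a core at -37 to -31. An E-box and a core starting at most 10 bases apart were found in 7 of 32851 windows (0.0213%), including both of these; the pair was looked for after both windows had been read. The core alone is in 5.56% of windows. The FoxO core GTAAACA, in 3.17% of windows, matched 1 of the 16 windows, before Akt1 at -161 to -155.

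Sgk3, the relative of Sgk1 that is held on endosomes by its lipid-binding domain, spans bases 9798107 to 9900845 of chromosome 1 (plus strand, ENSMUSG00000025915). It moved opposite to Sgk1 with the knockdown. Its level ranged from 10.3 to 13.9 CPM (median 12.8) in stretched knockdown cells and from 6.66 to 10.6 CPM (median 8.28) in stretched control cells. Without stretch it ranged from 10.6 to 16.2 CPM (median 13.0) in knockdown cells and from 6.54 to 9.64 CPM (median 7.61) in control cells. Only the non-stretched groups were free of overlap, and in stretched cells 5 of 6 knockdown libraries lay above every control library. The rises were 0.57 with stretch (SE 0.114, adjusted p = 0.000147) and 0.71 without (SE 0.114, adjusted p = 7.43e-06), or 48.6% and 63.1% higher. Its log2 fold change with stretch was -0.08 in knockdown cells (SE 0.110, adjusted p = 0.743) and 0.06 in control cells (SE 0.118, adjusted p = 0.831), and the 95% intervals of -0.30 to 0.15 and -0.19 to 0.30 leave room for changes of either sign. Sgk2, the remaining relative, was at the edge of detection, with means of 0.402 ± 0.0499 CPM (stretched) and 0.330 ± 0.102 CPM (non-stretched) under knockdown and 0.250 ± 0.110 CPM (stretched) and 0.168 ± 0.0758 CPM (non-stretched) under control virus (SD, n = 6 each). It rose by 0.73 in stretched cells (SE 0.281, adjusted p = 0.0310) and by 0.98 without stretch (SE 0.303, adjusted p = 0.00698), and the rise in stretched cells was lost in 6 of 12 fits with a library left out (adjusted p up to 0.0920).

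Akt1 (ENSMUSG00000001729, chromosome 12, 112653821 to 112674884, minus strand) and Akt2 (ENSMUSG00000004056, chromosome 7, 27591552 to 27640826, plus strand) fell with the knockdown, Akt2 more than Akt1. Akt2 ranged from 181 to 188 CPM (median 185) in stretched knockdown cells and from 212 to 235 CPM (median 222) in stretched control cells. Without stretch it ranged from 171 to 193 CPM (median 184) in knockdown cells and from 220 to 231 CPM (median 227) in control cells. Every knockdown library lay below every control library in both settings. The falls were 16.9% with stretch (log2 fold change -0.27, SE 0.0281, adjusted p = 5.95e-09) and 18.8% without (-0.30, SE 0.0281, adjusted p = 4.62e-10), and both passed in all 6 alternative settings. Akt1 averaged 399 ± 9.11 CPM with knockdown and stretch, against 423 ± 8.61 CPM in stretched control libraries (SD, n = 6 each), a change of -0.08 (SE 0.0297, adjusted p = 0.0204). Without stretch it averaged 400.2 ± 21.1 CPM with knockdown, against 429 ± 10.8 CPM in control libraries (SD, n = 6 each), a change of -0.10 (SE 0.0297, adjusted p = 0.00511). The Akt1 calls were close to the threshold: when low genes were kept the changes were -0.06 each, with an adjusted p of 0.0987 with stretch and 0.0940 without, and with the authors' normalized values it was 0.0649 with stretch. Over all alternatives it ran from 0.0189 to 0.0987 with stretch and from 0.00135 to 0.107 without. They were also lost without stretched knockdown replicate 2 (-0.07, adjusted p = 0.0569) and without non-stretched knockdown replicate 4 (-0.05, adjusted p = 0.107).

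Stretch left neither Akt1 nor Akt2 past the threshold. In knockdown cells the log2 fold change was -0.0044 for Akt1 (SE 0.0297, 95% interval -0.07 to 0.06, adjusted p = 0.954) and 0.01 for Akt2 (SE 0.0281, 95% interval -0.05 to 0.07, adjusted p = 0.855). In control cells it was -0.02 for both (95% intervals -0.08 to 0.04 each, adjusted p = 0.733 for Akt1 and 0.705 for Akt2). These intervals bound any stretch change of the Akt transcripts more tightly than that of Sgk1, whose interval in control cells reached 0.33.

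Foxo1 (ENSMUSG00000044167, chromosome 3, 52268336 to 52353221, plus strand) was the gene whose level stretch lowered in both kinds of cell. It ranged from 22.2 to 23.6 CPM (median 22.8) in stretched knockdown cells and from 25.5 to 28.2 CPM (median 26.2) in non-stretched knockdown cells. In control cells it ranged from 17.7 to 19.6 CPM (median 18.7) with stretch and from 19.4 to 21.3 CPM (median 20.3) without. Stretched and non-stretched libraries did not overlap in knockdown cells, and in control cells 5 of 6 stretched libraries lay below every non-stretched one. Stretch lowered Foxo1 by 13.5% in knockdown cells (log2 fold change -0.21, SE 0.0341, adjusted p = 0.000181) and by 8.19% in control cells (-0.12, SE 0.0353, adjusted p = 0.0354). The 2 responses differed by -0.09 (SE 0.0491, 95% interval -0.19 to 0.02, adjusted p = 0.608). The fall in control cells was lost when low genes were kept (-0.11, adjusted p = 0.117) and when the 2 control groups were fitted alone (-0.11, adjusted p = 0.171), within 0.0180 to 0.171 over all its alternatives. It was also lost without stretched control replicate 1 (adjusted p = 0.0642), 3 (0.0913) or 4 (0.0814) and without non-stretched control replicate 1 (0.0803), 2 (0.0689) or 6 (0.0608), with changes of -0.12 to -0.11, and was -0.13 (adjusted p = 0.0180) without stretched control replicate 5. Knockdown raised Foxo1 by 22.4% with stretch (0.29, SE 0.0350, adjusted p = 6.21e-08) and by 29.9% without (0.38, SE 0.0344, adjusted p = 2.93e-10), with no overlap between libraries in either setting. An antisense gene, Gm20402, shares 7.78% of the Foxo1 exon bases, and whether the counting used strand is not given in the sources used here.

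Foxo3 (ENSMUSG00000048756, chromosome 10, 42181841 to 42276755, minus strand), a main FoxO factor of muscle wasting, passed no test. It averaged 47.6 ± 0.701 CPM in stretched knockdown cells, 45.5 ± 2.12 CPM in non-stretched knockdown cells, and in control cells 45.3 ± 1.29 CPM with stretch and 47.3 ± 2.59 CPM without (SD, n = 6 each). Its log2 fold changes with stretch were 0.07 in knockdown cells (SE 0.0347, adjusted p = 0.267) and -0.06 in control cells (SE 0.0349, adjusted p = 0.308), and the difference between them was 0.13 (SE 0.0492, unadjusted p = 0.0143, adjusted p = 0.389). Its log2 fold change with the knockdown in stretched cells, 0.07 (adjusted p = 0.0853), passed with DESeq2 (adjusted p = 0.0483), when low genes were kept (0.0440) and when the stretched groups were fitted alone (0.0242), within 0.0242 to 0.203 over its alternatives. Foxo4 (ENSMUSG00000042903, chromosome X, 101254528 to 101260873, plus strand) ranged from 52.4 to 58.2 CPM (median 55.8) in non-stretched knockdown cells and from 60.0 to 67.4 CPM (median 62.6) in non-stretched control cells, without overlap. It fell by 12.4% there (log2 fold change -0.19, SE 0.0491, adjusted p = 0.00152). In stretched cells it averaged 56.4 ± 2.91 CPM with knockdown and 60.1 ± 6.08 CPM in control (SD, n = 6 each), a difference of -0.09 (SE 0.0493, adjusted p = 0.140). Foxo6, the remaining FoxO gene, fell with the knockdown by 0.46 in stretched cells (SE 0.0661, adjusted p = 1.30e-06) and by 0.60 without stretch (SE 0.0655, adjusted p = 8.65e-09). The FoxO genes differed in direction with the knockdown without stretch, Foxo1 higher and Foxo4 and Foxo6 lower.

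Insr, the receptor tyrosine kinase for insulin (ENSMUSG00000005534, chromosome 8, 3122061 to 3279617, minus strand), fell with the knockdown. It ranged from 37.3 to 41.5 CPM (median 40.1) in stretched knockdown cells and from 45.0 to 49.5 CPM (median 46.7) in stretched control cells. Without stretch it ranged from 35.1 to 40.3 CPM (median 38.4) in knockdown cells and from 45.3 to 52.1 CPM (median 48.0) in control cells. All knockdown libraries lay below all control libraries. The falls were 15.1% with stretch (log2 fold change -0.24, SE 0.0411, adjusted p = 2.26e-05) and 21.2% without (-0.34, SE 0.0411, adjusted p = 4.62e-08), and both passed in all 6 alternative settings and with each library left out. Its log2 fold changes with stretch were 0.07 in knockdown cells (SE 0.0413, adjusted p = 0.319) and -0.04 in control cells (SE 0.0409, adjusted p = 0.663).

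The substrates moved the other way from the receptor. Irs2 (ENSMUSG00000038894, chromosome 8, 10984681 to 11008458, minus strand) ranged from 64.0 to 70.1 CPM (median 66.0) in stretched knockdown cells and from 48.5 to 54.3 CPM (median 49.4) in stretched control cells. Without stretch it ranged from 53.1 to 65.2 CPM (median 62.5) in knockdown cells and from 46.1 to 52.9 CPM (median 47.7) in control cells. Knockdown libraries lay above all control libraries in both settings. The rises were 33.6% with stretch (log2 fold change 0.42, SE 0.0419, adjusted p = 2.34e-09) and 25.5% without (0.33, SE 0.0419, adjusted p = 1.45e-07), and the rise with stretch was 0.44 (adjusted p = 2.02e-10) without stretched control replicate 5. Stretch raised Irs2 by 9.65% in knockdown cells (0.13, SE 0.0414, adjusted p = 0.0424), where 5 of 6 stretched libraries lay above all non-stretched ones, and in control cells the log2 fold change was 0.04 (SE 0.0423, adjusted p = 0.613). That stretch call was near the threshold: it was lost when low genes were kept (adjusted p = 0.0649), with the authors' normalized values (0.0717) and with only the compared groups in the fit (0.0524), within 0.0247 to 0.109 over all its alternatives. Of 12 fits with a library left out it passed in 2, without stretched knockdown replicate 4 and without non-stretched knockdown replicate 6, and the change in the others was 0.10 to 0.14 (adjusted p = 0.0513 to 0.109).

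Irs1 (ENSMUSG00000055980, chromosome 1, 82233101 to 82291416, minus strand) ranged from 36.2 to 38.8 CPM (median 37.7) in stretched knockdown cells and from 29.5 to 34.1 CPM (median 31.2) in stretched control cells, without overlap. Without stretch it ranged from 30.5 to 40.4 CPM (median 37.9) in knockdown cells and from 31.8 to 35.6 CPM (median 33.9) in control cells, where 5 of 6 knockdown libraries lay above all control libraries and replicate 4 lay below them. The rises were 19.6% with stretch (log2 fold change 0.26, SE 0.0481, adjusted p = 5.12e-05) and 9.78% without (0.13, SE 0.0477, adjusted p = 0.0177). The rise without stretch was 0.21 (adjusted p = 1.90e-05) without non-stretched knockdown replicate 4, which also had the highest share of mitochondrially encoded transcripts of all libraries (3.67%), and it was lost without non-stretched knockdown replicate 1 (0.11, adjusted p = 0.0578). The Irs1 log2 fold change with stretch was 0.02 in knockdown cells (SE 0.0474, adjusted p = 0.883) and -0.11 in control cells (SE 0.0483, unadjusted p = 0.0349, adjusted p = 0.193). A protein-coding gene on the opposite strand, Gm9747, shares 30.9% of the Irs1 exon bases and rose by 0.66 with the knockdown without stretch (SE 0.128, adjusted p = 8.23e-05), while in stretched cells its log2 fold change was 0.15 (adjusted p = 0.335). Whether the counting used strand is not given, so Irs1 values are uncertain to that extent; 9530052E02Rik shares 2.56% of the Irs2 exon bases in the same way. Irs4, a relative with narrow tissue expression, rose by 0.31 in stretched cells (SE 0.0607, adjusted p = 8.10e-05) and by 0.33 without stretch (SE 0.0604, adjusted p = 3.33e-05), and Irs3 was too low to be tested.

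The genes around the 10 were followed in lists drawn from textbook roles, chosen with earlier results of these data known. Each list count stands beside the background shares given above as a description, not as a test of the list. Those shares are from edgeR, and list counts by DESeq2 with stretch are given without a matching share of all genes. Of 28 genes of the PI3K to mTOR core, 26 were tested. Stretch raised 4 of these in knockdown cells and lowered 0: Rictor, a subunit of the kinase complex that phosphorylates Akt and Sgk1, by 0.19 (SE 0.0420, adjusted p = 0.00378), the Akt phosphatase Phlpp1 by 0.13 (SE 0.0304, adjusted p = 0.00748), and the PI3K regulatory subunits Pik3r3 by 0.18 (SE 0.0523, adjusted p = 0.0286) and Pik3r1 by 0.12 (SE 0.0369, adjusted p = 0.0373). Pik3r3 and Pik3r1 lost the call in 1 and 2 alternative settings and in 4 and 9 of 12 fits with a library left out. In control cells edgeR called 0 of the 26 with stretch, with 7 at an unadjusted p under 0.05, where 21.5% of all genes stood, and 1, Rictor, called by DESeq2. With the knockdown 4 rose and 7 fell in stretched cells, and 3 rose and 11 fell without stretch, with medians of -0.06 and -0.04 beside 0.0025 and 0.01 over all genes. Inppl1, the lipid phosphatase SHIP2 that opposes PI3K, fell by 0.61 in stretched cells and by 0.76 without stretch, and Pik3r1 fell by 0.33 and 0.46, the first of these -0.56 with the authors' normalized values. Rheb, the small GTPase that activates mTOR, fell by 0.28 in stretched cells, and Pik3r2 fell by 0.28 without stretch. Rictor rose by 0.23 in stretched cells and by 0.17 without stretch, Phlpp2 rose by 0.14 and Phlpp1 by 0.10 in stretched cells, and Mapkap1, which sits beside Rictor, rose by 0.15 without stretch. Of these, the Mapkap1 call was lost with the authors' normalized values (0.07, adjusted p = 0.176).

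Among 22 adaptors and inhibitors of the insulin receptor, 21 were tested. With the knockdown 6 rose and 11 fell in stretched cells, and 6 rose and 12 fell without stretch, with medians of -0.16 and -0.21. The shares over all tested genes were 52% and 57.8%. Grb14, which blocks the receptor's kinase, fell by 0.94 with stretch (adjusted p = 4.77e-18) and by 1.06 without (adjusted p = 2.50e-19). Trib2, a pseudokinase, fell by 1.65 in stretched cells and by 1.95 without stretch. The ubiquitin ligase Cblb fell by 0.71 in stretched cells. The adaptor Sh2b2 rose by 0.52 in both settings, the phosphatase Ptpn11 by 0.19 and 0.17, the inhibitor Socs3 by 0.30 in stretched cells and the pseudokinase Trib3 by 0.44 without stretch. Stretch raised 5 and lowered 2 of the 21 in knockdown cells, with the smallest adjusted p for Grb10 (0.14, adjusted p = 0.000126), Cblb (0.17, adjusted p = 0.00155) and Trib1 (0.29, adjusted p = 0.00177) among rises, with Trib3 (-0.18, adjusted p = 0.00765) and Dok1 (-0.20, adjusted p = 0.0126) as the falls, of which Dok1 was lost with the authors' normalized values (adjusted p = 0.122). In control cells Grb10 rose by 0.07 and Dok1 and Gab1 fell by 0.21 and 0.09, and each of these 3 calls was lost in at least 2 alternatives (adjusted p up to 0.116, 0.205 and 0.114).

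Substrates and partners of Sgk1 were followed through 9 transcripts, all tested. Knockdown raised 2 and lowered 6 in stretched cells, and raised 0 and lowered 6 without stretch. Over all tested genes 52% and 57.8% passed there. Ndrg2 averaged 34.7 ± 2.29 CPM with knockdown and stretch, against 68.6 ± 4.70 CPM in stretched control libraries, and 32.0 ± 2.26 CPM with knockdown alone, against 75.5 ± 3.73 CPM in non-stretched control libraries (SD, n = 6 each). It fell by 0.98 (adjusted p = 2.40e-15) and 1.24 (adjusted p = 1.30e-17). The potassium channel Kcnq1 fell by 0.48 and 0.57, and Ndrg1, whose phosphorylation is a common readout of Sgk1, fell by 0.25 and 0.30. Without stretch the ubiquitin ligases Nedd4l, Nedd4 and Stub1 fell by 0.19, 0.17 and 0.18. In stretched cells the kinase Wnk1 rose by 0.18 and the scaffold Slc9a3r2 by 0.16. With stretch edgeR called 0 of the 9 in knockdown cells, with 2 at an unadjusted p under 0.05 (22.3% of all genes) and 0 by DESeq2, and 0 in control cells, with 5 at that level (21.5% of all genes) and 1, Wnk1, by DESeq2.

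Of 33 FoxO targets, 28 were tested, and with the knockdown 6 rose and 20 fell in stretched cells, and 6 rose and 21 fell without stretch. The count of falls includes Trim63, the gene the hairpin targets. The medians were -0.21 and -0.24, beside 0.0025 and 0.01 over all genes. Of all tested genes 52% passed in stretched cells and 57.8% without stretch, 26.9% and 29.7% as falls. Fbxo32 ranged from 19.8 to 21.5 CPM with knockdown and stretch, against 34.8 to 42.6 CPM in stretched control libraries, and from 18.5 to 21.4 CPM with knockdown alone, against 41.1 to 46.7 CPM in non-stretched control libraries. It fell by 0.90 (adjusted p = 4.08e-15) and 1.15 (adjusted p = 1.58e-17). Pdk4, which restrains glucose oxidation, fell by 0.80 and 1.06. Among the rises with the smallest adjusted p, the cell cycle inhibitor Cdkn1a rose by 0.72 and 0.82, the death factor Bcl2l11 by 0.57 and 0.49, and the sestrin Sesn3 by 0.42 and 0.34. Of the 26 calls in stretched cells 24 held in every alternative and with each library left out, and of the 27 without stretch 25 did.

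With stretch, FoxO targets gave 2 rises and 1 fall in knockdown cells and 2 rises and 7 falls in control cells. Of all tested genes 8.93% passed in knockdown cells and 5.95% in control cells, the latter 14% without stretched control replicate 5. Txnip, an arrestin that limits glucose uptake, fell in both, by 0.61 in knockdown cells (SE 0.0587, adjusted p = 1.91e-07) and by 0.42 in control cells (SE 0.0585, adjusted p = 8.63e-05). Trim63 rose in both, by 0.30 (adjusted p = 0.0129) and 0.29 (adjusted p = 0.0174), the second without a call when stretched control replicate 1 was left out (0.25, adjusted p = 0.0526). Bcl6 rose by 0.18 in knockdown cells (adjusted p = 0.00547) and Cdkn1a by 0.14 in control cells (adjusted p = 0.0109). Pdk4 fell by 0.21 (adjusted p = 0.00411) and the F-box protein Fbxo31 by 0.16 (adjusted p = 0.0102) in control cells, and the Fbxo31 call was lost with only the compared groups in the fit (adjusted p = 0.0537). Of the 9 calls in control cells 3 held in every alternative and with each library left out.

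**Figure D4:**
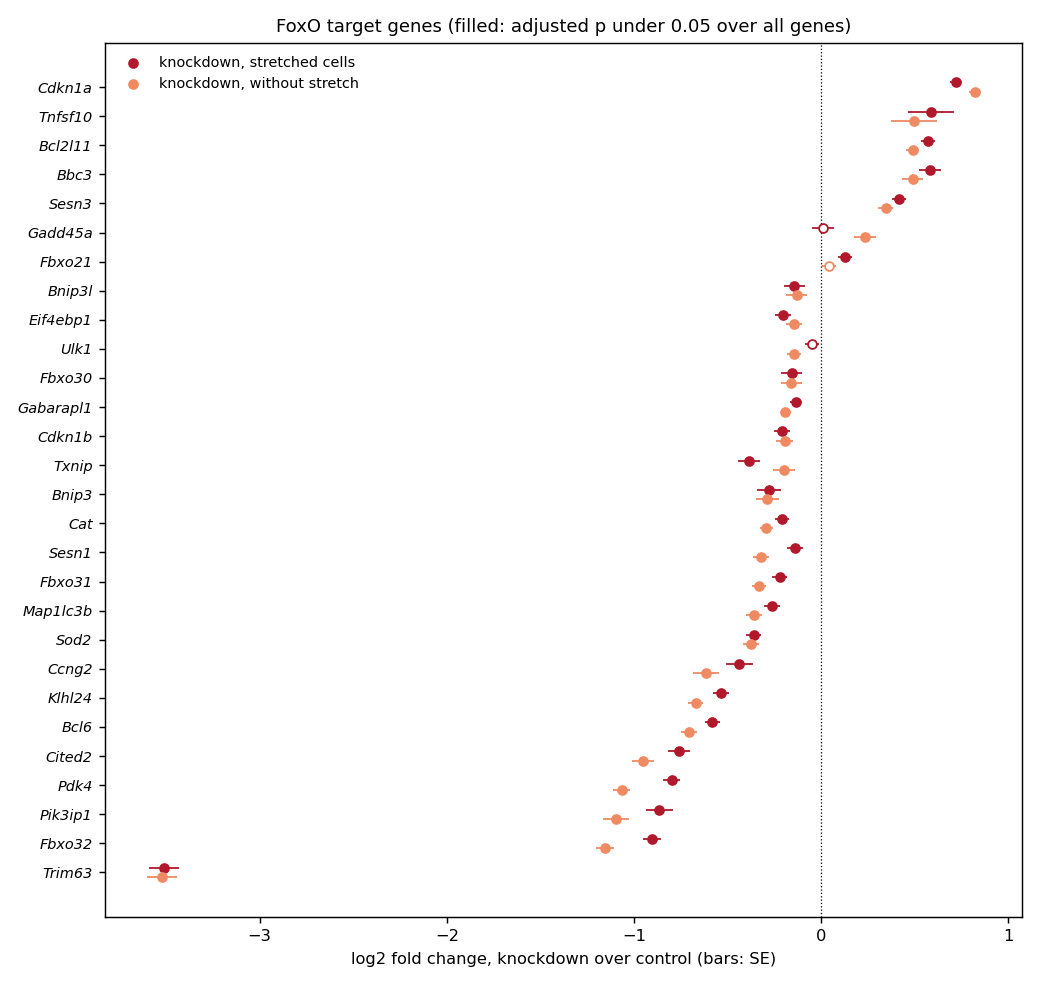
Log2 fold change with the knockdown for the 28 tested FoxO targets in stretched cells (dark red) and without stretch (orange), with SE bars; filled points passed the adjusted p of 0.05 over all genes. Most points lie left of 0, Trim63 farthest at -3.51 and -3.52, and the rises are led by Cdkn1a at 0.72 and 0.82.

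All 21 regulators of FoxO proteins were tested, and with the knockdown 6 rose and 4 fell in stretched cells, and 3 rose and 8 fell without stretch. These counts are near the shares of all tested genes, 52% and 57.8%. Skp2, the ubiquitin ligase subunit that marks Foxo1 for breakdown, rose by 0.32 and 0.44, the deacetylase Sirt1 by 0.41 and 0.40, and the kinase Ikbkb by 0.21 and 0.17. The acetyltransferase Kat2b fell by 0.34 and 0.41, and the 14-3-3 proteins Ywhag and Ywhah, which hold phosphorylated FoxO in the cytoplasm, fell by 0.24 and 0.26 and by 0.23 and 0.28. Stretch of knockdown cells raised 2, the 14-3-3 protein Sfn by 0.27 (adjusted p = 0.0172) and the acetyltransferase Ep300 by 0.10 (adjusted p = 0.0320), with adjusted p of up to 0.0576 and 0.104 over the other fits. In control cells edgeR called 0 with stretch, with 3 at an unadjusted p under 0.05 (21.5% of all genes) and 1, Sirt3, called by DESeq2.

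Because glucocorticoids are a classical inducer of Sgk1, 12 genes known to rise with them were followed. Stretch raised 4 and lowered 0 in knockdown cells: the phosphatase Dusp1 by 0.54 (SE 0.0841, adjusted p = 0.000119), the inhibitor Nfkbia by 0.18 (SE 0.0394, adjusted p = 0.00323), the receptor inhibitor Errfi1 by 0.16 (SE 0.0445, adjusted p = 0.0207) and Klf9 by 0.12 (SE 0.0379, adjusted p = 0.0489). The Errfi1 and Klf9 calls were lost in 3 and 10 of 12 fits with a library left out. DESeq2 called 4 rises and 1 fall in knockdown cells, with Fkbp5 called beside these 4 genes. In control cells stretch raised Tsc22d3 by 0.16 (adjusted p = 0.00487), Klf9 by 0.16 (adjusted p = 0.0151) and Dusp1 by 0.34 (adjusted p = 0.0170). The Klf9 call there was lost with only the compared groups in the fit (adjusted p = 0.0543). DESeq2 called 4 rises and 0 falls in control cells, with Mt2 beside these genes. Of all tested genes 8.93% and 5.95% passed in edgeR with stretch of knockdown and control cells. The shares for DESeq2 are not given here, so its counts have no matching background. With the knockdown 4 rose and 3 fell in each setting, near the 52% (stretched) and 57.8% (non-stretched) of all tested genes. Errfi1 rose by 0.55 and 0.51, the receptor chaperone Fkbp5 by 0.38 and 0.39 and Mt2 by 0.32 and 0.48, whereas Tsc22d3 fell by 0.36 and 0.19 and Ddit4 by 0.36 and 0.23. Cebpd fell by 0.21 in stretched cells and Mt1 by 0.16 without stretch. The Cebpd call was lost with the authors' normalized values and without stretched control replicate 1 or 3 (adjusted p up to 0.0589), and the Mt1 call with no filter (adjusted p = 0.0734).

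For the test of the difference between both stretch responses edgeR called 0 genes of every list. At an unadjusted p under 0.05 stood 9.4% of all genes, 4 of 26 of the PI3K to mTOR core, 9 of 21 receptor adaptors and inhibitors, 2 of 9 Sgk1 substrates and partners, 11 of 28 FoxO targets, 2 of 21 FoxO regulators and 3 of 12 glucocorticoid-induced genes. Among those that DESeq2 called there were Gab1, Trib3, Fbxo32, Pdk4, Ep300 and Tsc22d3.

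The genes with profiles most like those of Sgk1, Sgk3 and Irs2 were found by the root mean square difference of log2 CPM, centred on each gene's mean, over the 24 libraries and 11322 candidates. For Sgk1 these were Camk4, a calcium-dependent kinase (0.195), Dusp10, a phosphatase of stress kinases (0.199), and Fosl2, an AP-1 subunit (0.216), where the profile of Sgk1 itself varied by 0.386 about its mean. All 3 were lowest in non-stretched knockdown cells, which follows from how they were chosen. Unlike Sgk1, Dusp10 and Fosl2 also rose with stretch in control cells (0.24 and 0.35). Camk4, Dusp10 and Fosl2 all fell with the knockdown in stretched cells (-0.21, -0.48 and -0.41), where Sgk1 missed the threshold. Fosl2 averaged 74.8 ± 1.57 CPM with knockdown and stretch, 51.3 ± 3.14 CPM with knockdown alone, 99.8 ± 3.29 CPM with stretch alone and 78.0 ± 4.02 CPM with neither (SD, n = 6 each). For Sgk3 the closest were Bdh2 (0.160), Tspan13 (0.160) and Snx16 (0.171), against 0.381 for Sgk3 about its mean. For Irs2 they were Rbm15b (0.0660), Rcan1, an inhibitor of calcineurin (0.0731), and the actin crosslinker Flnc (0.0742), against 0.204 for Irs2 about its mean. The libraries are shared by all genes, so likeness here includes whatever the groups and the library scaling have in common.

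**Figure D5:**
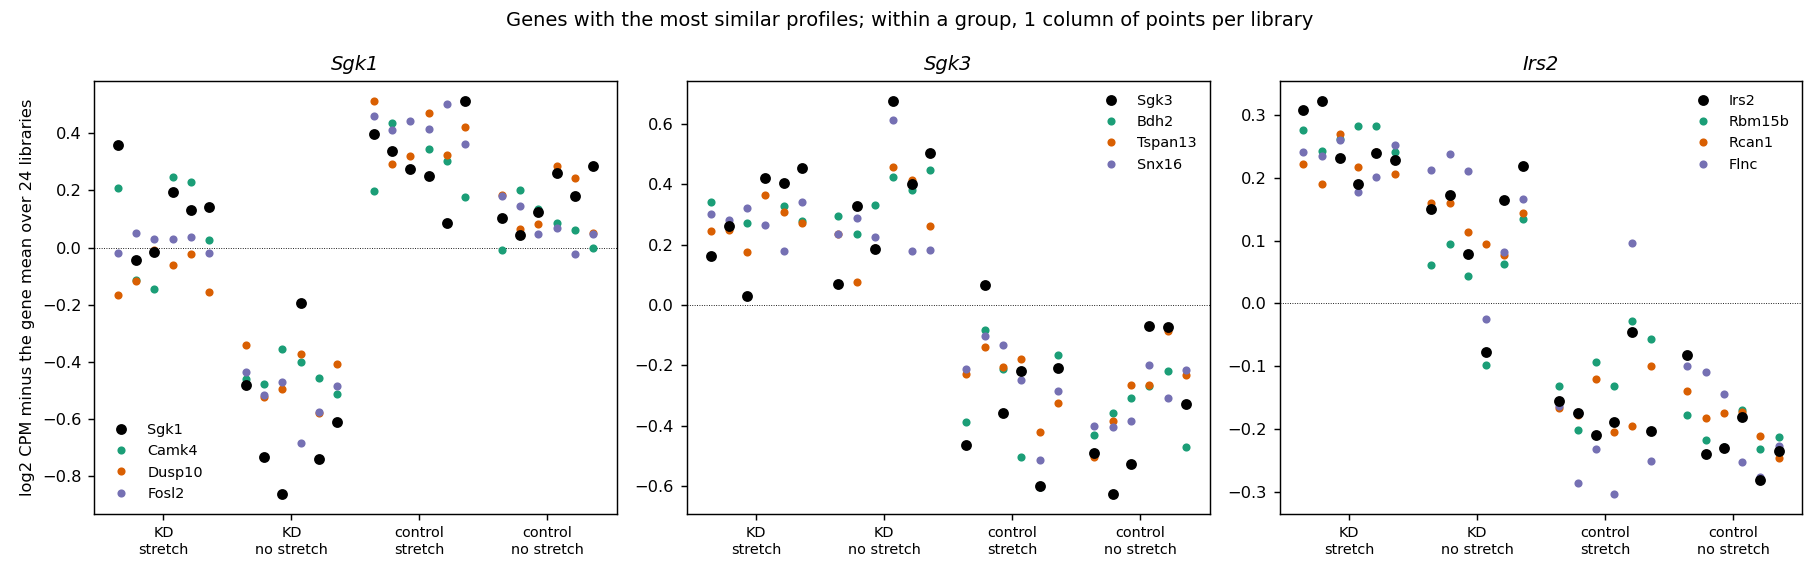
Log2 CPM of Sgk1, Sgk3 and Irs2 (black) and of the 3 genes most like each (colours) minus the gene's mean over 24 libraries, with 1 column of points per library and the groups from stretched knockdown on the left to non-stretched control on the right. In the Sgk1 panel all 4 genes are lowest in non-stretched knockdown cells, and in the Sgk3 and Irs2 panels the knockdown groups lie above the control groups for most libraries.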

How the data were processed

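Poly(A) RNA of 24 libraries was sequenced with a stranded kit, per the labels' protocols. The authors deposited estimated counts per gene (36.6% of values whole within 1e-09) and a normalized signal; kallisto 0.44.0, DESeq2 1.18.1, R 3.4.4 and GRCm38.p6 are listed in the submitters' processing notes. The annotation release, the summing of transcripts to genes, the use of strand and the treatment of near-identical copies are not stated in these sources. The deposited signal was used only as an alternative, since its ratio to the count differs between genes of a library (median coefficient of variation 1.06% over 10512 genes).

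Counts were rounded to whole numbers and fitted with edgeR 4.0.16 (R 4.3.3), with TMM factors, filterByExpr (minimum count 10, minimum total 15; 14411 of 20351 genes kept), a robust quasi-likelihood fit with 1 coefficient per group over all 24 libraries, and Benjamini-Hochberg adjustment over all tested genes. Contrasts were stretched minus non-stretched, knockdown minus control, and the difference of the stretch responses. The code was run on counts simulated from the fit itself, which cannot test whether that model holds for these data. Levels are CPM after TMM scaling, and log2 CPM for the profiles used a prior count of 2. Genes are placed by GENCODE vM21. Of 60 replicate pairs 0 were identical, and all differed by more than sampling noise (chi-square per gene at least 2.85). The 10 genes and all lists were chosen with earlier results of these data known. The text names all 10, their relatives, and per list and comparison the 3 rises and 3 falls with the smallest adjusted p (all where 6 or fewer), apart from a few genes not reported here; profiles are given for the 3 genes with the largest change, among genes averaging 1 or more in log2 CPM. Alternatives were DESeq2 1.42.0 and its size factors, no filter, the deposited signal in limma 3.58.1, a replicate block, only the compared groups, mean transcript length, and each library left out.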

Additional observations from a re-analysis of the deposited data

Results flagged for a closer look

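Of 40 groups of 6 libraries (10 genes in 4 groups), 2 held a library far from the other 5, and chance gives about 1 in 20. Irs1 stood at 30.5 CPM in non-stretched knockdown replicate 4, the lowest of its group, against 37.2 to 40.4 CPM in the others. That library also had the highest share of mitochondrially encoded transcripts of all 24, at 3.67%, and its part in the low Irs1 value was not tested. Irs2 stood at 54.3 CPM in stretched control replicate 5, the highest of its group, against 48.5 to 50.3 CPM in the others. That library had the fewest counts of all, 23564268.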

How the results depend on the processing

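Of the 50 changes of the 10 genes, the calls of Sgk3, Akt2, Foxo1, Insr and Irs2 with the knockdown, of Irs1 with the knockdown in stretched cells, of Sgk1 and Foxo4 with the knockdown without stretch, and of Sgk1 and Foxo1 with stretch in knockdown cells held in every alternative and with each library left out. Over the alternative settings 272 values kept direction and side of the threshold, 8 lost and 6 gained a call, and 4 changed sign, none of them called: the Akt1 interaction with no filter (-0.000895) and, with the authors' normalized values, Akt1 with stretch in knockdown cells (0.0083), Foxo3 with stretch in control cells (0.0036) and Foxo3 with knockdown without stretch (0.0023). Likeness between libraries of the same replicate number was weak: over 36 same-numbered pairs r ran from -0.0638 to 0.147, with 3 over 0.1. Of 24 libraries 8 were closest to their own number among 6, so a weak pairing is not excluded. With the number as a replicate block the calls were 1403 for stretch in knockdown cells and 946 for stretch in control cells, against 1287 and 857 without it. For the knockdown they were 7567 in stretched cells and 8378 without stretch, against 7494 and 8325. The interaction gave 9 calls with the block, against 3, and Sgk1 passed there (0.58, adjusted p = 0.0342) as 1 of the 10. Sgk1 with the knockdown in stretched cells also passed with the block (-0.19, adjusted p = 0.0348). Stretch in control cells gave 857 calls (42.9% rises), against 565 with the authors' normalized values (51.5%), 377 with only the compared groups (58.9%) and 619 with no filter (60.7%), and 0 of the 10 genes in the last 2 of these. The interaction gave 3 calls, against 122 with DESeq2 (1 of the 10) and 1 with the authors' normalized values.

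With a library left out, calls ran from 856 (without stretched knockdown replicate 4) to 1259 for stretch in knockdown cells, from 568 (without stretched control replicate 1) to 2023 (without stretched control replicate 5) for stretch in control cells, from 7102 to 8017 and from 7974 to 8334 for the knockdown with and without stretch, and from 0 to 109 for the interaction, the highest without stretched control replicate 5, the lowest without stretched control replicate 2 or non-stretched control replicate 6. Of the 10 genes, 2 to 3, 0 to 1, 6 to 8, 8 to 9 and 0 to 1 were called. Shares of all tested genes were, in that order, 5.91% to 8.69%, 3.92% to 14%, 49% to 55.4%, 55% to 57.5% and 0% to 0.753%. Signs changed in 10 such fits, none called: the ranges were -0.0251 to 0.0129 for Akt1, -0.0064 to 0.0264 for Akt2 and -0.0326 to 0.0412 for Irs1 with stretch in knockdown cells, -0.0226 to 0.118 for Sgk3 with stretch in control cells, and -0.0203 to 0.0350 for Akt1 and -0.00093 to 0.0507 for Akt2 in the interaction. Of 203 calls in the lists 162 held in all fits without the block. Levels per kb changed with mean transcript length, except for Foxo1, Irs1 and Irs2, which have 1 coding transcript each. Depth limits mainly Sgk1 and Sgk3, at 163 to 675 counts a library, and Sgk2.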
